A study of Mus musculus with 16 samples.

Results

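The genes described here were grouped as genes of macrophages that enter a tissue and fill with lipid: Gpnmb, Cd63, Cd68, Lgals3, Clec7a, Clecsf12, Mmp12, Lyz2, Lyzs and Lyz. They were chosen by symbol, as every probe of the array that carries 1 of these 10 symbols, out of 18138 symbols on the array. The list of symbols was put together with results of these same livers in view, so the members' differences between the groups are descriptions: no p-value is printed for a member, and counts of members past the threshold stand beside the share of all genes past it and support nothing. All 10 symbols were among the 9265 that passed the detection filter, where a probe counts as detected on an array if its detection p is under 0.05 and is kept if detected on at least 4 arrays. Gpnmb, Clec7a, Clecsf12 and Mmp12 were detected on no chow array and passed through the high cholesterol arrays alone, so they had to differ between the diets. In current RefSeq naming Clecsf12 is Clec7a and Lyzs is Lyz2, and Lyz is listed as a synonym of Lyz1, which leaves 8 genes.

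Liver RNA of 16 mouse samples on a 129SV/C57BL/6 background was hybridised to Illumina bead arrays, 1 array per sample. The 4 groups of 4 arrays were wild type (WT) on regular chow, c-Met knockout (KO) on regular chow, WT on a high cholesterol diet and KO on that diet, all for 30 days. Cholesterol made up 2% of the high cholesterol diet, with 0.5% sodium cholate added. Hepatocyte growth factor signals through c-Met, whose conditional loss the series title places in the liver. The sources used here do not give the driver of the deletion, the age or the number of animals behind a sample. The labels do not state that the samples are separate animals, so standard errors and p-values measure the spread between samples. Of 25697 probes, 10811 to 11952 were detected on the chow arrays and 10028 to 11088 on the high cholesterol arrays. The SD of the deposited intensity over probes detected on no array was 4.47 to 5.51 on chow and 6.54 to 8.08 on the high cholesterol diet. Array background thus differed with the diet, and its part in the diet differences cannot be told apart. The number of arrays limits the precision. Met, the targeted gene, was near background in every group and could not check the genotype labels: Met in KO minus Met in WT came to 0.38 ± 0.19 (log2) on chow (limma adjusted p = 0.329), and it was -0.05 ± 0.19 under high cholesterol feeding (limma adjusted p = 0.969).

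Macrophages that take up lipoprotein, dying cells or crystals digest them in lysosomes, and the load of sterol and membrane lipid changes which genes they use. Cells of this kind are known from atherosclerotic plaque, obese fat tissue and fatty liver, where they arise largely from blood monocytes and sit beside the resident Kupffer cells. Gpnmb is a transmembrane glycoprotein of the late endosome that the lysosomal stress factors of the MiT family induce. Cd63 is a tetraspanin of lysosomes and exosomes, and Cd68 a heavily glycosylated protein of the lysosomal membrane. Clec7a is Dectin-1, the receptor for fungal beta-glucan. Lgals3 is galectin-3, a secreted lectin that also marks damaged lysosomes, Mmp12 is the macrophage elastase, and lysozyme is the muramidase that macrophages and granulocytes release. RNA of whole liver was measured, so more or fewer cells of a type and more or less RNA per cell cannot be told apart. Which cells made the RNA of the members was not tested. Cd63, Cd68, Lgals3, Lyz2, Lyzs and Lyz were detected on every chow array too.

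The promoter stretches that hold the letters of a motif of macrophage transcription factors are shown, since these genes were high together. RefSeq sequences of GRCm38.p6, from 250 bases before to 50 after each start, were found for all 8 current genes, with 10 start sites in all because Clec7a and Mmp12 have several. Both strands were searched for the AP-1 letters TGANTCA, the PU.1 letters GAGGAAGT, the shorter ETS family letters AGGAAG that lie within them, the MiT family letters CACGTG and the letters TATAAA. AP-1 letters were in 3 of 10 windows (7.81% of 32851 mouse promoter windows hold them), PU.1 letters in 1 of 10 (3.2%) and CACGTG in 0 of 10 (7.15%). AGGAAG was in 4 of 10 (35.4%) and TATAAA in 2 of 10 (13.6%), and these matches are not capitalised outside the PU.1 match. In each line below the match is in capitals and the strand is that of the gene. Gpnmb is shown from base -10 to base 20 around its start on chromosome 6 (chr6:49036508-49036537, plus strand), with the match starting at base 9. Cd68 is shown from base -150 to base -1 on chromosome 11 (chr11:69666171-69666320, minus strand), with matches starting at bases -149 and -24. Mmp12 is shown from base -100 to base -1 of the upstream start on chromosome 9 (chr9:7344297-7344396, plus strand), where the PU.1 match starts at base -88 on the opposite strand, and of the downstream start (chr9:7347274-7347373, plus strand), where an AP-1 match starts at base -44. A match describes these letters and is not evidence that a factor binds there.
Gpnmb: atagatgccaggggcaagTGACTCAtgagc
Cd68: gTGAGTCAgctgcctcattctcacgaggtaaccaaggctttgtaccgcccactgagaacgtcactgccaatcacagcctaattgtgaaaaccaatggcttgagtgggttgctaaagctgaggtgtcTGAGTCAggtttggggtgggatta
Mmp12, upstream start: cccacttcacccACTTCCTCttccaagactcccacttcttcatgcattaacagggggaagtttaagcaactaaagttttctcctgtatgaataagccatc
Mmp12, downstream start: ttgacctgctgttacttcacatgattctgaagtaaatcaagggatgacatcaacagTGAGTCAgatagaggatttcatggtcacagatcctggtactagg

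Gpnmb was at background on chow, and of the 10 symbols it had the largest log2 difference between the genotypes on the high cholesterol diet. Its deposited intensity, background-subtracted and not normalized between arrays, was 1.93, -1.49, -2.86 and -1.58 in WT on chow and -1.83, -0.813, 3.91 and 0.929 in KO on chow. On the high cholesterol diet it was 861, 219, 1135 and 174 in WT and 95.0, 42.7, 91.5 and 38.0 in KO. The chow arrays lay at background, and every WT array on the high cholesterol diet was above every KO array on it. On the normalized log2 scale, used for all differences from here on and given ± the standard error of the limma fit (4 arrays in each group), the fitted diet differences were 4.15 ± 0.41 in WT and 1.80 ± 0.41 in KO, against chow values that were not well above background. Against the lowest detected signal of each chow array these are at least 13.0-fold and at least 2.60-fold higher. On the high cholesterol diet KO was 4.92-fold lower than WT, a log2 difference of -2.30 ± 0.41. The gene lies on chromosome 6 from 49036518 to 49058182 (GRCm38.p6), and these values come from 1 of its 4 probes, ILMN_2648669. The other 3 probes of Gpnmb were detected on no array, and their KO minus WT differences on the high cholesterol diet were -0.32, -0.02 and -0.09. Where each probe lies in the transcript was not analysed here.

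Cd63 was detected on all 16 arrays. Its deposited intensity was 133, 45.9, 90.0 and 62.9 in WT on chow and 42.2, 98.7, 60.5 and 74.4 in KO on chow. It was 1290, 1187, 2126 and 775 in WT on the high cholesterol diet and 298, 368, 386 and 430 in KO on that diet. The chow groups overlapped and the high cholesterol groups did not overlap with them or with each other. Cd63 was 11.7-fold higher on the high cholesterol diet in WT (3.54 ± 0.25) and 4.17-fold higher in KO (2.06 ± 0.25), and it was 2.80-fold lower in KO than in WT on that diet (-1.48 ± 0.25). All 3 probes of Cd63 passed the detection filter, and the high cholesterol groups did not overlap on any of them, with the other 2 probes at -1.26 and -1.11. Cd63 lies on chromosome 10 from 128896231 to 128912822.

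The deposited intensity of Cd68 was 53.5, 36.9, 25.6 and 46.3 in WT on chow and 41.3, 58.1, 46.1 and 14.5 in KO on chow. It was 215, 95.9, 291 and 162 in WT on the high cholesterol diet and 51.2, 57.7, 78.2 and 94.2 in KO on it. The WT groups did not overlap, whereas the KO diet groups overlapped on the normalized scale, as did the genotypes on the high cholesterol diet. Cd68 was 2.72-fold higher with the diet in WT (1.44 ± 0.27) and 1.40-fold higher in KO (0.48 ± 0.27), and KO was 1.88-fold lower than WT on the high cholesterol diet (-0.91 ± 0.27). It lies on chromosome 11 from 69664213 to 69666170.

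Clec7a and Clecsf12, probes of the gene for Dectin-1 (chromosome 6, 129461591 to 129472785), were undetected on all chow arrays. The kept Clec7a probe had deposited intensities of 57.1, 17.4, 85.2 and 41.0 in WT and 24.1, 19.2, 66.6 and 21.6 in KO on the high cholesterol diet, and was detected on 3 of 4 arrays of each. The Clecsf12 probe had 44.0, 24.4, 44.3 and 40.2 in WT, detected on 4 of 4, and 28.6, 18.9, 21.0 and 17.7 in KO, detected on 2 of 4. On both probes the genotypes overlapped on this diet. Clec7a was at least 1.69-fold higher with the diet in WT and at least 1.46-fold in KO, and Clecsf12 at least 1.46-fold and at least 1.18-fold. The KO minus WT differences on the high cholesterol diet were -0.19 ± 0.27 for Clec7a and -0.29 ± 0.16 for Clecsf12. The Clec7a difference was 0.02 without WT replicate 3 and -0.50 without KO replicate 3. A further Clec7a probe, which did not pass the filter, was at 0.31 for the same difference, the opposite sign.

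**Figure D1:**
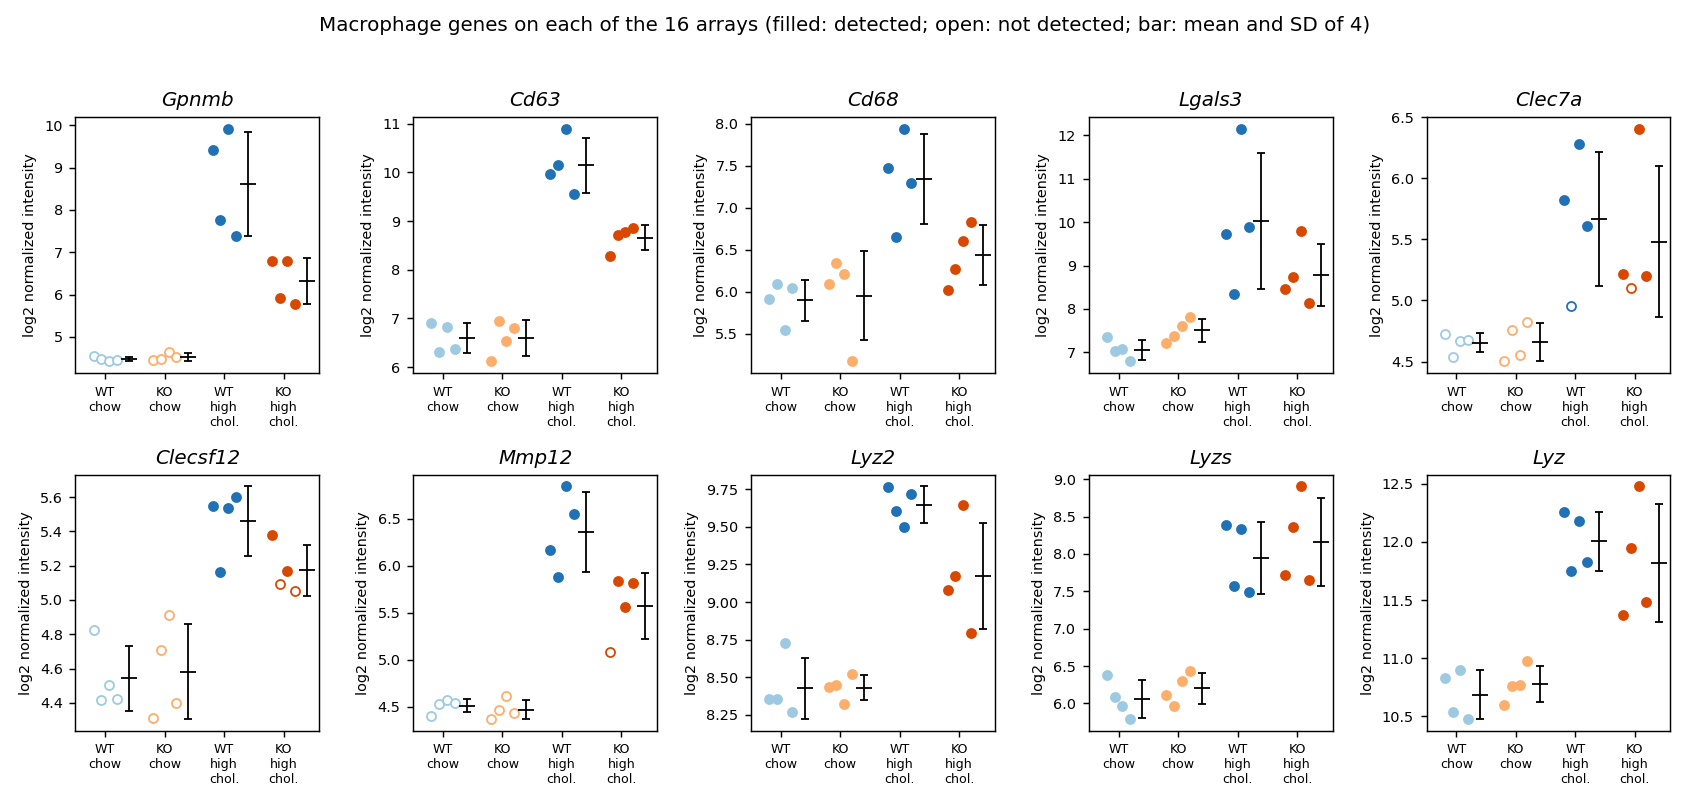
Normalized log2 intensity of each macrophage gene symbol on the 16 arrays, with the 4 arrays of a group side by side (filled, detected; open, not detected) and the group's mean and SD beside them; each panel has its own vertical scale. Gpnmb, Clec7a, Clecsf12 and Mmp12 have open points on every chow array, and Gpnmb, Cd63 and Mmp12 are the symbols whose WT and KO arrays on the high cholesterol diet do not overlap.

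The secreted products were Lgals3, Mmp12 and the lysozymes. Lgals3 had deposited intensities of 194, 87.5, 111 and 90.9 in WT on chow and 109, 140, 150 and 166 in KO on chow. On the high cholesterol diet it had 1087, 328, 4735 and 967 in WT and 338, 373, 790 and 254 in KO. The WT arrays spread widely, with replicate 3 far above the others and replicate 2 within the range of KO. Lgals3 was 7.80-fold higher with the diet in WT (2.96 ± 0.53) and 2.41-fold higher in KO (1.27 ± 0.53), with no overlap between the diets in either genotype. On the high cholesterol diet KO was at -1.25 ± 0.53 against WT, and at -0.54 without WT replicate 3. Lgals3 lies on chromosome 14 from 47373860 to 47386167.

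Mmp12 was at background on chow, from -5.54 to 3.14 in deposited intensity over the 8 arrays. On the high cholesterol diet it was 77.1, 50.7, 133 and 93.1 in WT and 20.1, 39.5, 31.9 and 40.1 in KO, with the first KO array not detected. No KO array reached the lowest WT array. Mmp12 was at least 2.72-fold higher with the diet in WT and at least 1.55-fold higher in KO, and 1.72-fold lower in KO than in WT on the high cholesterol diet (-0.79 ± 0.19). Its mean deposited intensity on that diet was 88.4 in WT and 32.9 in KO, dim enough for the offset to shrink these folds. Mmp12 lies on chromosome 9 from 7344397 to 7360461.

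The lysozyme probes differed more between the diets than between the genotypes. Lyz2 had deposited intensities of 250 to 416 in WT and 259 to 309 in KO on chow, and of 1117, 798, 849 and 868 in WT and 529, 510, 712 and 407 in KO on the high cholesterol diet. On the deposited scale the WT and KO arrays of that diet did not overlap, while on the normalized scale KO replicate 3 reached into the range of WT. Lyz2 was 2.33-fold higher with the diet in WT (1.22 ± 0.16) and 1.67-fold higher in KO (0.74 ± 0.16), and KO was at -0.47 ± 0.16 against WT on that diet. The Lyzs probe, assigned by name to the same gene (chromosome 10, 117277541 to 117282272), had 420, 190, 381 and 188 in WT and 197, 285, 425 and 175 in KO on that diet, after 36.0 to 85.5 in WT and 40.5 to 54.6 in KO on chow. It was 3.70-fold higher with the diet in WT and 3.88-fold higher in KO, and was the only symbol of the 10 with a positive KO minus WT difference on the high cholesterol diet, 0.21 ± 0.26, which was -0.03 without KO replicate 3. The Lyz probe had 1274 to 2560 in WT and 1315 to 1666 in KO on chow, and 5791, 3351, 4839 and 3431 in WT and 2643, 3629, 4830 and 2601 in KO on the high cholesterol diet. Its diet differences were 1.32 ± 0.21 in WT and 1.04 ± 0.21 in KO, and its KO minus WT difference on the high cholesterol diet was -0.19 ± 0.21. RefSeq lists Lyz under Lyz1 (chromosome 10, 117287795 to 117292868), the lysozyme gene beside Lyz2, but both probes labelled Lyz1 were detected on no array, so which of these close copies the Lyz probe measured could not be settled. Cross-hybridisation between the copies was not tested.

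Set together, all 10 symbols were higher on the high cholesterol diet in both genotypes. In WT the median fitted difference was 1.65, against -0.02 over all 9265 genes tested. It was 1.44 with Gpnmb, Clec7a, Clecsf12 and Mmp12, which no chow array detected, set to their bounds, and the other 6 symbols ran from 1.22 for Lyz2 to 3.54 for Cd63. All 10 passed an adjusted p of 0.05 in the limma fit over all genes, where 13.7% of genes passed as higher, and none of the 10 overlapped between the diets, as was so for 13% of genes. In KO the median fitted difference was 1.07, against -0.03 over all genes. It was 0.89 with the same 4 symbols at their bounds, and the other 6 ran from 0.48 for Cd68 to 2.06 for Cd63. There 8 of 10 passed as higher, Cd68 and Lgals3 excepted, against 15.2% of genes, and 9 of 10 did not overlap, against 16%. The members were chosen with these differences in view, and 4 of them could not have been tested without being higher on the diet, so nothing is read from these counts. The 2 diet comparisons share no array, while the comparison of the genotypes on the high cholesterol diet shares its arrays with both. Clec7a in KO did not pass without KO chow replicate 1 (0.77) or 3 (0.79) or without KO high cholesterol replicate 3 (0.51), against 0.82 with all arrays, nor with cyclic loess or with no detection filter. Lgals3 in KO, at 1.27 ± 0.53, passed without WT high cholesterol replicate 2 or 3, which are no part of that difference but enter the estimate of the spread.

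On chow the arrays of WT and KO overlapped for every symbol. The median KO minus WT difference of the 10 symbols was 0.04, from -0.04 for Mmp12 to 0.45 for Lgals3, against -0.0040 over all genes. Gpnmb, Clec7a, Clecsf12 and Mmp12 were detected on no chow array. Their chow differences are of background signal, so a genotype difference on chow was not measured for them. No symbol passed in limma, 0 of 10 had an unadjusted p under 0.05, and 0 of 10 had arrays of the groups that did not overlap. Over all genes 0% passed, 1470 of 9265 had an unadjusted p under 0.05, and 13.7% did not overlap in either direction.

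On the high cholesterol diet 9 of the 10 symbols were lower in KO than in WT, Lyzs excepted. The median difference was -0.63, from -2.30 for Gpnmb to 0.21 for Lyzs, against 0.01 over all genes. Gpnmb and Cd63 passed in limma, where 0.108% of genes passed as lower and 0.054% as higher, and Gpnmb, Cd63 and Mmp12 did not overlap, as was so for 2.1% of genes in this direction. Again the members were chosen with this contrast in view and nothing is read from the counts. Gpnmb did not pass without WT replicate 1 (-2.04) or 3 (-1.87), nor without KO replicate 2 (-2.17) or 4 (-2.11). Cd63 did not pass without KO replicate 2 (-1.50), and Mmp12 passed without WT replicate 2 (-0.95). The interaction, the diet difference in KO minus that in WT, had a median of -0.61 over the 10 symbols against 0.01 over all genes. It was -2.35 ± 0.58 for Gpnmb, -1.48 ± 0.35 for Cd63, -1.69 ± 0.74 for Lgals3 and 0.07 ± 0.37 for Lyzs. No chow array detected Gpnmb, Clec7a, Clecsf12 or Mmp12, so their interactions largely repeat their KO minus WT differences on the high cholesterol diet. No symbol passed in the interaction (6 of 10 had an unadjusted p under 0.05, as had 967 of all 9265 genes), where 0.0108% of all genes passed in limma.

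**Figure D2:**
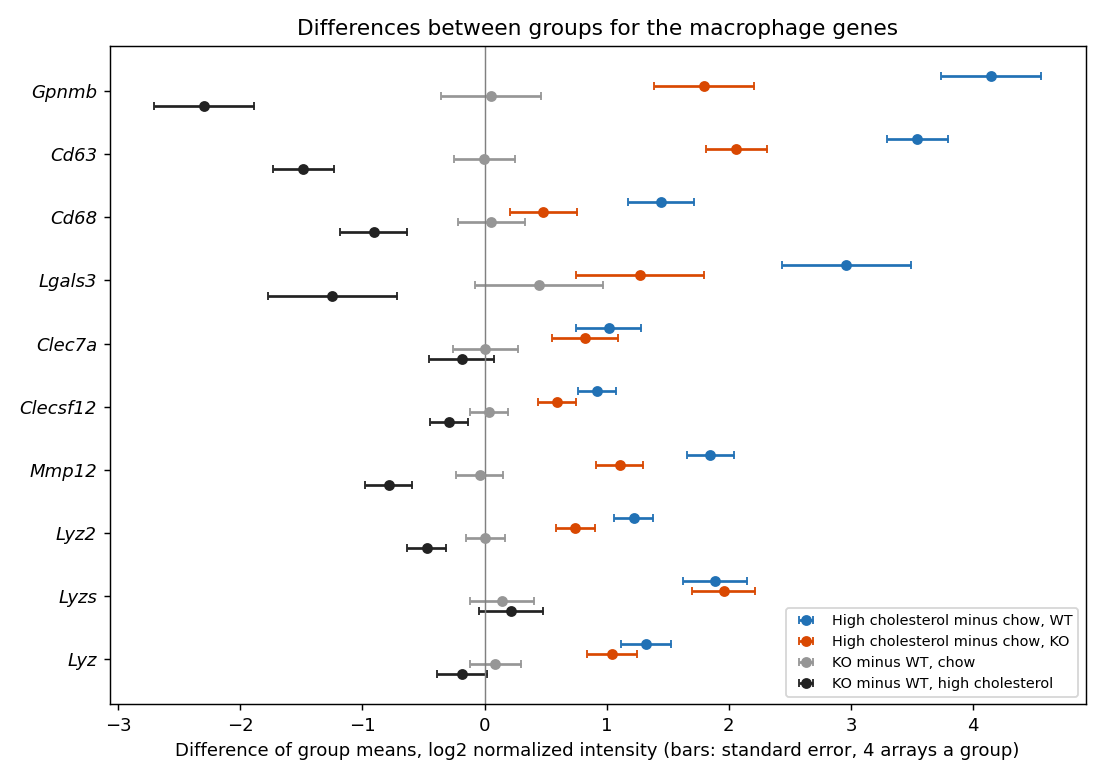
Differences between group means of log2 normalized intensity for the 10 symbols, with standard errors, for the diet in WT and in KO and for KO minus WT on each diet; diet differences of Gpnmb, Clec7a, Clecsf12 and Mmp12 are fitted against chow arrays that did not detect them. The chow genotype differences sit around 0, with Gpnmb, Clec7a, Clecsf12 and Mmp12 undetected on chow. Genotype differences on the high cholesterol diet run from -2.30 for Gpnmb to 0.21 for Lyzs.

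For 6 of the 10 symbols 1 array was the highest of its group. Within WT on the high cholesterol diet, replicate 3 was highest for 6 of the 10 symbols and lay a median of 0.54 above the group mean, and replicate 2 was lowest for 6, at -0.43. Within KO on that diet, replicate 3 was highest for 6 of 10, at 0.47, and replicates 4 and 1 were lowest for 5 and 4. The mean over the 10 symbols was 8.45, 7.78, 8.96 and 8.09 for WT replicates 1 to 4, and 7.34, 7.52, 8.01 and 7.36 for KO replicates 1 to 4. KO replicate 3 was thus within the WT range, and the other KO arrays were below all WT arrays. Without both arrays numbered 3, chosen after seeing the data, the median KO minus WT difference was -0.65.

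Markers of other cells were read on the same arrays, as sums of normalized intensity over the genes tested of each list. KO replicate 3 on the high cholesterol diet had the highest sum for recruited monocyte markers (3570, against 1430 to 1470 on the other KO arrays), for Kupffer cell markers (14300 against 8510 to 10500) and for neutrophil markers (11000 against 475 to 886). Of that last sum 10300 was Lcn2, an iron-binding protein of neutrophils that hepatocytes also make in inflammation, which was 127 to 307 on the other KO arrays. WT replicate 3 had the highest sum of lipid-associated macrophage markers (6160, against 2680 to 3390 on the other WT arrays) and of recruited monocyte markers in WT (3240, against 1820 to 2050), but not of Kupffer cell or neutrophil markers. The same array was also the highest WT array of that diet for cholangiocyte markers (3170, against 493 to 1150), endothelial cell markers (5600, against 3670 to 4600), stellate cell markers (9140, against 6780 to 8650) and lysosomal genes (63100, against 45400 to 51100). Spp1 is in both the cholangiocyte and the lipid-associated macrophage list, so these sums are not separate. Its log2 value minus its mean over all arrays was 3.41 on this array. On WT replicates 1, 2 and 4 of that diet it was 0.47, 1.19 and 1.85. The part of these markers in the members' values was not tested.

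**Figure D3:**
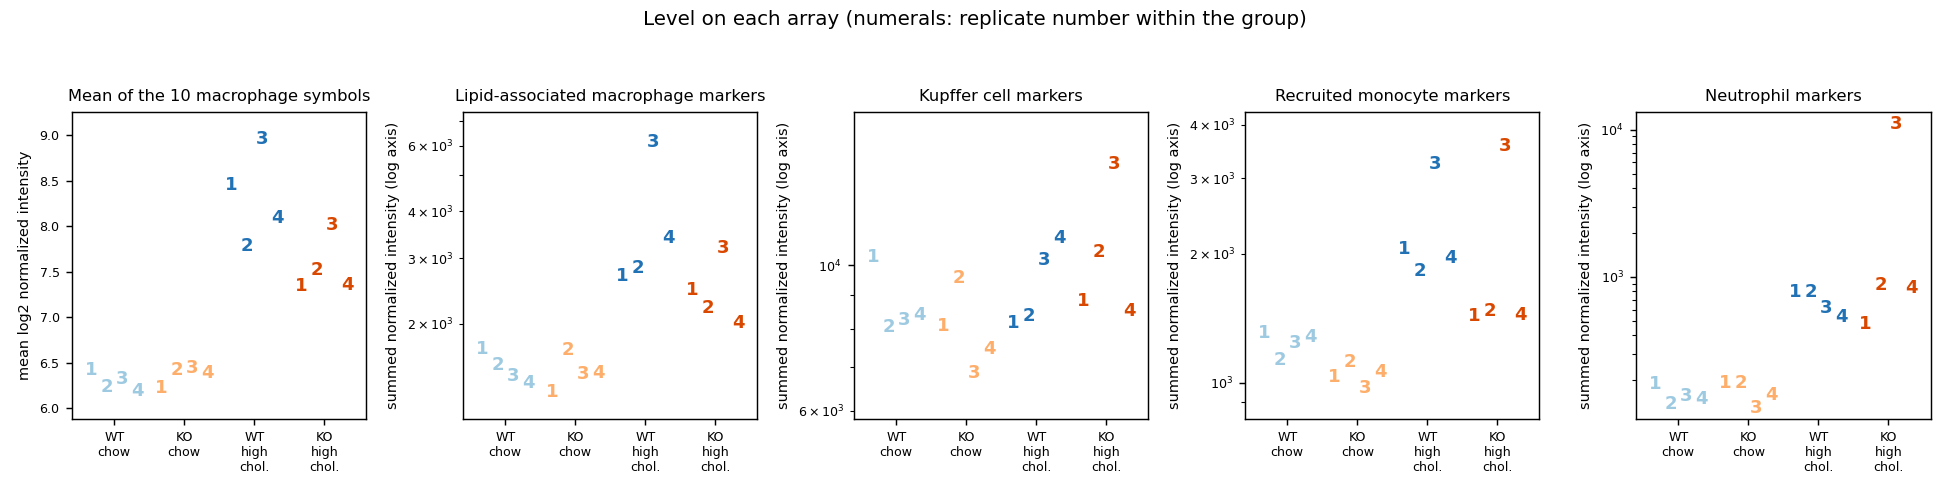
Mean log2 normalized intensity of the 10 symbols, and summed normalized intensity of 4 marker lists on log axes, for each array, drawn as its replicate number within the group. Replicate 3 is the highest array of both high cholesterol groups for the 10 symbols, and replicate 3 of KO stands at 11000 for the neutrophil markers.

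Further markers of lipid-associated macrophages, other than the members, were counted next, with p-values adjusted over all genes. This list and those below were chosen with earlier results of these data known. Their counts and p-values are descriptions and no independent support. Some genes stand in more than 1 list, among them Cd9, Lgals1, Ctsk and Csf1r, so the counts of different lists are not separate. For list genes that passed the detection filter through the arrays of 1 diet alone, the filter favoured a difference between the diets. Of 18 genes on the array 12 were tested. In WT 5 rose with the diet and 0 fell, where 13.7% of all genes rose and 11.8% fell, with a median of 0.80 against -0.02 over all genes. Cd9, a tetraspanin of the cell surface, rose by 1.64 ± 0.16 (limma adjusted p = 1.94e-06), Spp1, osteopontin, by 3.13 ± 0.45 (0.000121), the actin-capping protein gene Capg by 1.24 ± 0.24 (0.00119) and the cysteine protease gene Ctsk by 0.80 ± 0.19 (0.00536). In KO 4 rose and 1 fell, where 15.2% of all genes rose and 12.4% fell, with a median of 0.49. Cd9 rose by 0.96 ± 0.16 (limma adjusted p = 0.000257), and Cd52, a surface glycoprotein of leukocytes, by 1.17 ± 0.36 (0.0214). Spp1 at 1.26 ± 0.45 and Capg at 0.67 ± 0.24 stood at the threshold (limma adjusted p = 0.0457 and 0.0435), and they did not pass in 17 and 16 of 28 alternatives. The count in KO was 1 without KO chow replicate 1 or KO high cholesterol replicate 3, and 2 without WT chow replicate 2 or 4, KO chow replicate 3 or 4, or KO high cholesterol replicate 1 or 2. It was also 2 with no background correction, median scaling, the authors' normalized values or no detection filter. The gene that fell, Il7r of the interleukin-7 receptor, was detected on no high cholesterol array. Il7r passed the filter through chow arrays alone, so the filter favoured a fall and nothing is read from it. Defining members of this state were out of reach: Trem2, the lipid receptor, was detected on 3 arrays, and Itgax and Fabp4 on 0 arrays, so these were not tested.

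Lysosomal proteases and hydrolases were counted over 23 tested genes: 12 rose and 1 fell in WT, and 10 rose and 1 fell in KO. Of all genes, 13.7% rose and 11.8% fell in WT, and 15.2% and 12.4% in KO. The medians of the list were 0.70 in WT and 0.35 in KO. Ctss, cathepsin S of antigen-presenting cells, rose by 1.50 ± 0.13 in WT (limma adjusted p = 9.11e-07) and 1.55 ± 0.13 in KO (5.74e-07), although it was detected on 1 of 4 and 2 of 4 chow arrays. Ctsd, cathepsin D, was detected on no WT chow array and was at least 2.23-fold higher there, and it rose by 1.47 ± 0.16 in KO (limma adjusted p = 8.25e-06). Cstb, a cathepsin inhibitor, rose by 1.14 ± 0.15 in WT and Gusb, beta-glucuronidase, by 1.13 ± 0.16. In KO Npc2, the carrier of cholesterol out of the lysosome, rose by 1.19 ± 0.17 and Hexa, a subunit of beta-hexosaminidase, by 0.93 ± 0.14. Ctsl, cathepsin L, fell by 1.46 ± 0.30 in WT and 1.00 ± 0.30 in KO; it was named after its values were seen, as the single gene that fell. Hepatocytes express most of these genes too.

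Among sterol handling and scavenger genes, of 12 tested, 2 rose in WT and 3 in KO, and 0 fell in either. The shares of all genes that rose were 13.7% in WT and 15.2% in KO, and of those that fell 11.8% and 12.4%. The medians of the list were 0.34 and 0.37. Lpl, lipoprotein lipase, rose by 2.11 ± 0.38 in WT (limma adjusted p = 0.000716) and 1.34 ± 0.38 in KO (0.0144). Abcg1, the cholesterol exporter of macrophages, was detected on no WT chow array and was at least 1.32-fold higher there, and it rose by 0.73 ± 0.24 in KO (limma adjusted p = 0.0287). Cxcl16, a membrane-bound chemokine and scavenger receptor, rose by 0.50 ± 0.17 in KO (limma adjusted p = 0.0376). The count in KO was 0 without KO chow replicate 1, 1 without KO chow replicate 3 or KO high cholesterol replicate 3, and 5 without WT high cholesterol replicate 3. The count in WT was 1 without WT chow replicate 1, 2 or 4 or without WT high cholesterol replicate 1, 2 or 3. With no detection filter it was also 1. The scavenger receptor genes Cd36 and Olr1 and the exporter gene Abca1 were detected on 0 arrays.

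Of 12 recruited monocyte markers tested, 4 rose and 0 fell in WT, and 5 rose and 1 fell in KO, with medians of 0.65 and 0.63. By comparison 13.7% of all genes rose and 11.8% fell in WT, and 15.2% and 12.4% in KO. Sirpa, an inhibitory receptor of phagocytes, rose by 0.98 ± 0.24 in WT and 0.95 ± 0.24 in KO, and Coro1a, an actin-binding protein of leukocytes, by 1.12 ± 0.28 and 0.95 ± 0.28. Cx3cr1, the fractalkine receptor, rose in WT by 0.94 ± 0.20 (limma adjusted p = 0.00275) and was at 0.19 ± 0.20 in KO (0.497); its interaction was -0.75 ± 0.28 (limma adjusted p = 0.411). The gene that fell, named after its values were seen, was Itgb2, an integrin of leukocytes, detected on no high cholesterol array. Itgb2 passed the filter through chow arrays alone, so the filter favoured a fall and nothing is read from it. The count in KO was 3 without KO chow replicate 1 or KO high cholesterol replicate 3, and 3 with the mean of probes. Ccr2, the receptor that draws monocytes from blood, and its ligand gene Ccl2 were detected on 0 arrays.

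The resident macrophages were read from 15 Kupffer cell markers, of which 1 rose and 0 fell in WT and 3 rose and 1 fell in KO. Beside these stand 13.7% of all genes that rose and 11.8% that fell in WT, and 15.2% and 12.4% in KO. The medians of the list were 0.14 and 0.39. Csf1r is both in this list and in the recruited monocyte list, so their counts in KO share it. Emr1, which encodes F4/80, rose by 1.02 ± 0.31 in WT (limma adjusted p = 0.0233) and 1.20 ± 0.31 in KO (0.00889). Emr1 in WT did not pass without WT chow replicate 2 or 4 or WT high cholesterol replicate 3, with adjusted p up to 0.0723. The count in WT was 2 without WT chow replicate 1 or KO high cholesterol replicate 3, or with array weights. The count in KO was 5 without KO chow replicate 2 or KO high cholesterol replicate 4 and 1 without KO chow replicate 3. Vsig4, a complement receptor of Kupffer cells, rose in KO by 0.60 ± 0.20 (limma adjusted p = 0.0343). Clec4f, the lectin that defines mouse Kupffer cells, was at 0.08 ± 0.25 in WT and 0.15 ± 0.25 in KO (limma adjusted p = 0.848 and 0.699); it was added after the values were seen. The summed Kupffer cell markers ranged from 8051 to 10313 in WT on chow, 6864 to 9562 in KO on chow, 8166 to 11021 in WT and 8514 to 14290 in KO on the high cholesterol diet, so all 4 groups overlapped. Cd5l was detected on 0 arrays.

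Other cells that could carry these transcripts were covered unevenly by the arrays. For the counts that follow, 13.7% of all genes rose and 11.8% fell in WT, and 15.2% and 12.4% in KO. Of 14 neutrophil markers on the array 3 were tested, of which 1 rose in WT and 2 in KO. S100a8, a subunit of the neutrophil protein calprotectin, rose by 2.98 ± 0.41 in WT and 3.48 ± 0.41 in KO (limma adjusted p = 8.4e-05 and 1.69e-05). The count in KO was 1 without any 1 KO chow array, and the count in WT was 2 without KO high cholesterol replicate 3. With no detection filter, a variance trend or only the groups compared, the count in KO was also 1. With array weights or only the groups compared, the count in WT was also 2. The summed neutrophil markers were 137 to 186 in WT on chow, 128 to 191 in KO on chow, 534 to 795 in WT and 475 to 10975 in KO on the high cholesterol diet. Of 8 dendritic cell markers 0 could be tested, and of 2 T and NK cell markers 0 passed in limma in either diet comparison, with none at an unadjusted p under 0.05 in WT and in KO. Of 10 stellate cell markers 4 rose in WT, among them Col1a1 by 1.30 ± 0.21, and 0 rose in KO, where Lrat, which stores retinol in these cells, fell by 0.84 ± 0.30 (limma adjusted p = 0.0466); their sums were 6784 to 9143 in WT and 5623 to 6860 in KO on the high cholesterol diet. Of 11 endothelial cell markers 1 rose and 3 fell in WT and 0 rose and 2 fell in KO, of 4 cholangiocyte markers, Spp1 among them, 1 rose in WT and 3 in KO, and of 3 B and plasma cell markers 2 rose in each. Of 11 hepatocyte markers 1 fell in WT and 1 rose in KO, and their sums overlapped between all 4 groups. With median scaling 6 hepatocyte markers fell in WT and 3 in KO, so the count depends on the scaling, and 2 stellate cell markers rose in WT. The part of these cells in the members' values was not tested.

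**Figure D4:**
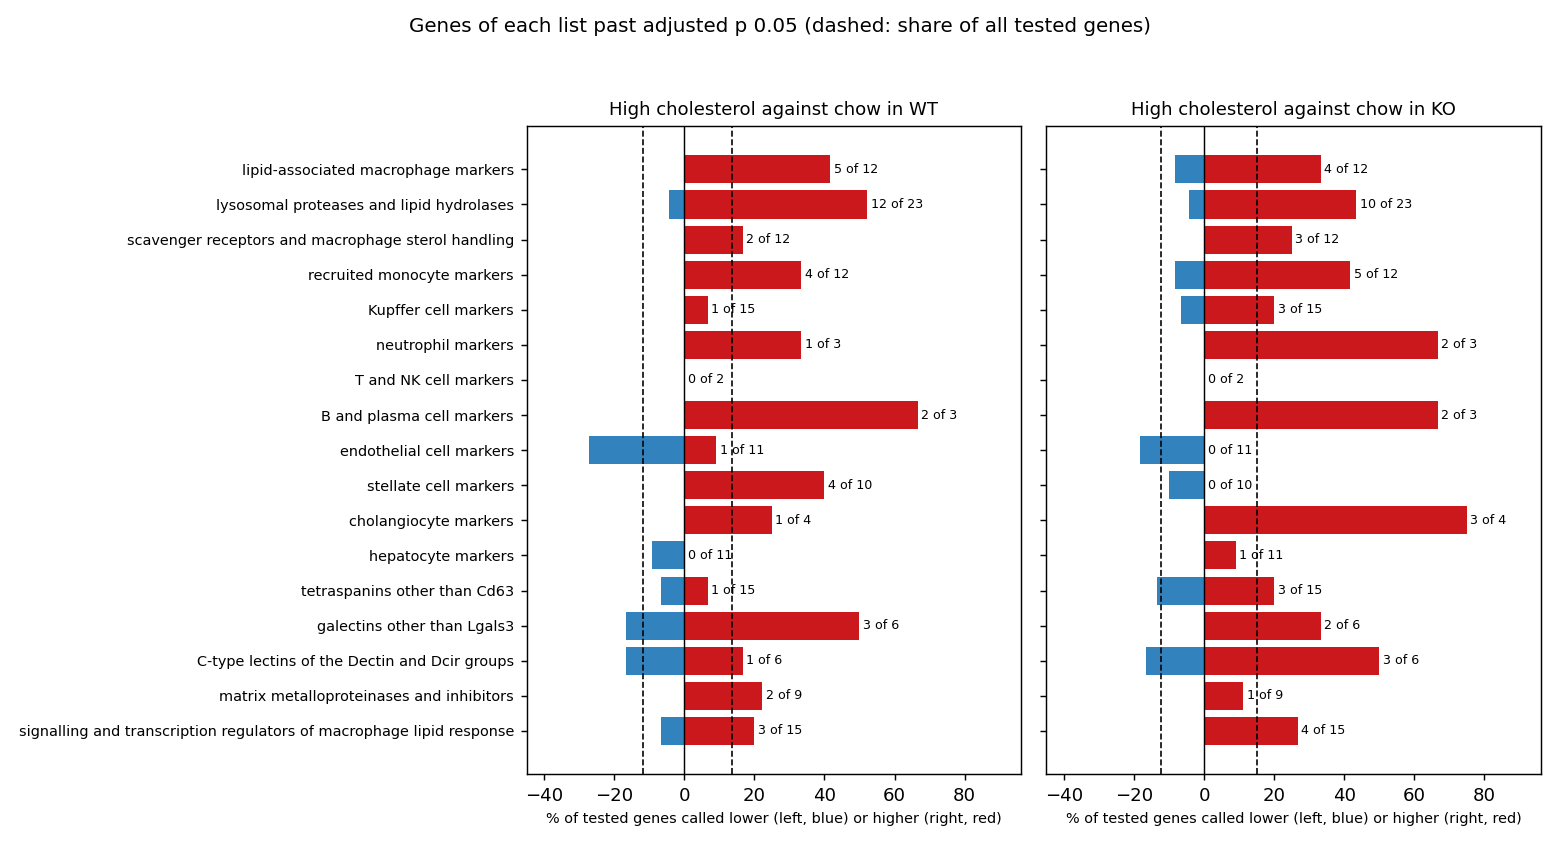
Share of the tested genes of each list that passed an adjusted p of 0.05 as higher (right, with the count) or lower (left) on the high cholesterol diet, in WT and in KO, in percent, with the share over all genes dashed; the galectin list includes Lgals3bp. Of 23 lysosomal genes 12 were higher in WT and 10 in KO, and of 15 Kupffer cell markers 1 and 3. Genes that passed the detection filter through the arrays of 1 diet alone are included, and some genes are in more than 1 list.

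The relatives of the members were counted in the same way. Their counts stand against 13.7% of all genes that rose and 11.8% that fell in WT, and 15.2% and 12.4% in KO. Of 15 other tetraspanins 1 rose and 1 fell in WT, and 3 rose and 2 fell in KO. Cd9 rose in both, while Tspan33, known from red cell precursors, fell by 1.43 ± 0.19 in WT and 1.65 ± 0.19 in KO. The galectin list held the other galectins and Lgals3bp, and of its 6 tested genes 3 rose and 1 fell in WT, and 2 rose and 0 fell in KO; with median scaling 1 rose in WT and 1 in KO. Lgals3bp, which is no galectin but a secreted glycoprotein that binds galectin-3, rose by 0.69 ± 0.21 in WT (limma adjusted p = 0.0249) and 0.77 ± 0.21 in KO (0.0128), and Lgals1, galectin-1, by 0.99 ± 0.33 in WT (0.0332). Of 6 C-type lectins 1 rose and 1 fell in WT, and 3 rose and 1 fell in KO. Clecsf9, in current naming Clec4e or Mincle, rose by 1.08 ± 0.18 in WT and was at least 1.55-fold higher in KO, and Clec2d fell by 1.53 ± 0.29 in WT. Of 9 matrix metalloproteinases and inhibitors 2 rose in WT, Mmp15 by 1.02 ± 0.21 and Timp1, detected on no chow array, by at least 1.25-fold. Timp1 passed the filter through high cholesterol arrays alone, so the filter favoured its rise. Mmp15 alone rose in KO, by 0.89 ± 0.21.

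Among 15 regulators of macrophage lipid response, 3 rose and 1 fell in WT and 4 rose and 0 fell in KO. The shares of all genes that rose and fell were 13.7% and 11.8% in WT, and 15.2% and 12.4% in KO. Tcfe3, in current naming Tfe3, a MiT family factor of lysosomal stress, rose by 0.73 ± 0.18 in WT and 0.92 ± 0.18 in KO (limma adjusted p = 0.00715 and 0.00137). Irf8, a factor of monocyte development, rose by 0.85 ± 0.23 in WT and was at least 1.66-fold higher in KO. Bcl10, an adaptor below Dectin-1, rose by 0.41 ± 0.14 and 0.56 ± 0.14. Nr1h3, the oxysterol receptor LXR-alpha, fell by 0.60 ± 0.15 in WT (limma adjusted p = 0.00616). Csf1r, the receptor for the macrophage growth factor, rose in KO by 0.81 ± 0.23 (limma adjusted p = 0.0162). This same rise is counted in the recruited monocyte and Kupffer cell lists too. The MiT family genes Mitf and Tfec and the Dectin-1 kinase gene Syk were detected on 0 arrays.

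Between the genotypes on the high cholesterol diet, 0 genes of any of these 17 tested lists passed in limma in either direction. At an unadjusted p under 0.05 there were 3 of 12 lipid-associated macrophage markers, 2 of 23 lysosomal genes, 1 of 12 monocyte markers, 1 of 15 Kupffer cell markers and 0 of 3 neutrophil markers, against 905 of 9265 over all genes, or 9.77%. Among markers of other cells there were 3 of 10 for stellate cells, 2 of 4 for cholangiocytes, 2 of 11 for endothelial cells, 1 of 2 for T and NK cells, 0 of 3 for B and plasma cells and 0 of 11 for hepatocytes. Among the members' relatives and regulators there were 3 of 15 tetraspanins, 1 of 6 in the galectin list, 0 of 6 C-type lectins, 2 of 9 matrix metalloproteinases and inhibitors, 0 of 15 regulators and 0 of 12 scavenger and sterol genes. The lipid-associated macrophage markers had a median of -0.27 against 0.01 over all genes, the stellate cell markers -0.35, the endothelial cell markers -0.15 and the cholangiocyte markers 0.04. The part of these cells in the members' genotype differences was not tested. The sums of the lipid-associated macrophage markers were 1392 to 1708 in WT and 1312 to 1699 in KO on chow, and 2676 to 6162 in WT and 2006 to 3200 in KO on the high cholesterol diet. The last 2 groups overlapped only through KO replicate 3, which exceeded WT replicates 1 and 2. Spp1 was at -1.26 ± 0.45 (limma adjusted p = 0.333). The lysosomal genes had a median of -0.05 and the Kupffer cell markers of 0.27. Among the alternatives, 1 endothelial cell marker passed as lower in KO with median scaling. Without WT high cholesterol replicate 2, 1 lysosomal gene passed as lower in KO.

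The genes outside the list with the profiles nearest to Gpnmb and Cd63 over the 16 arrays were found by the mean absolute difference of log2 values centred on each gene's own mean. For Gpnmb these were Golm1 (0.55), Spp1 (0.61), Smpdl3b (0.63), Uap1l1 (0.68), Spink3 (0.77), Ccnd1 (0.77), Cdkn1a (0.78) and Ostb (0.79), where the median over all genes was 1.55. Cd63 stood at 0.48 from Gpnmb and Lgals3 at 0.58, while Lyz2 was at 1.05 and Clecsf12 at 1.18. For Cd63 they were Uap1l1 (0.44), Golm1 (0.47), Smpdl3b (0.48), Spp1 (0.55), Cfb (0.58), Gstm3 (0.59), Arpc1b (0.61) and Scn3b (0.62), where the median over all genes was 1.42. Golm1 encodes a Golgi membrane protein, and its differences were 2.56 for the diet in WT, 1.68 for the diet in KO and -1.01 for KO against WT on the high cholesterol diet. Smpdl3b, a phosphodiesterase of the cell surface, had 3.21, 0.74 and -2.38 in the same order, and Uap1l1, related to an enzyme of amino sugar synthesis, 2.82, 1.99 and -0.55. Ccnd1, which encodes cyclin D1, had 3.02, 2.34 and 0.05, so a place near Gpnmb by this measure does not require a difference between the genotypes.

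**Figure D5:**
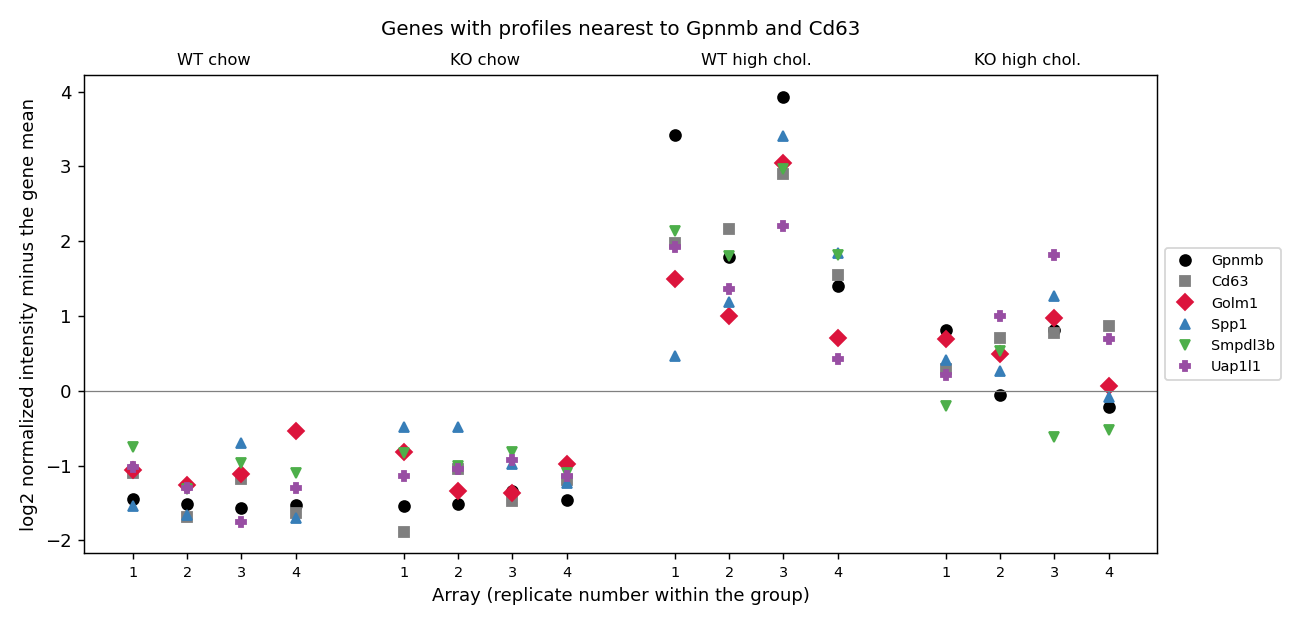
Log2 normalized intensity minus each gene's mean, by array, for Gpnmb, Cd63 and the genes nearest to them. All 6 genes lie below their mean on every chow array and above it on every WT array of the high cholesterol diet. On the KO arrays of that diet Smpdl3b lies below its mean on 3 of 4, Gpnmb on replicates 2 and 4, and Spp1 on replicate 4.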

How the data were processed

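Biotin-labelled cRNA was made from total liver RNA of 16 samples, per the labels' protocols, and GenomeStudio 2009.1 is named in the submitters' processing notes. The deposited table gives an intensity per probe and array, background-subtracted and not normalized between arrays, with values below 0. A detection p-value stands beside each intensity in the deposited table. A further table of the authors holds intensity values normalized between arrays, used only as an alternative.

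The members, lists and tests were chosen with earlier results of these data known. Detection p-values gave the background for normexp (offset 16), before quantile normalization and log2, with limma 3.58.1 in R 4.3.3. Of 25697 probes 12248 were kept, and the brightest stood for each symbol. A mean per group was fitted with lmFit and eBayes over 16 arrays, with 5 comparisons, two-sided tests and Benjamini-Hochberg adjustment over 9265 genes at 0.05. For a gene that no array of a group detected, the fold is a bound against the lowest detected signal of each such array. Named were the members, Met, the 8 nearest profiles to Gpnmb and to Cd63, up to 4 genes per list with the smallest p and list genes detected on 0 arrays; others are marked.

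Tried as alternatives were no background correction, cyclic loess, median scaling, the authors' normalized values, other detection filters, the mean of probes, a replicate block, a variance trend, array weights, only the groups compared and each array left out. The fit was tested on simulated data. Of 18138 symbols 17213 matched the RefSeq gene table. Figures were drawn with matplotlib 3.10.9 in Python 3.11.15.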

Additional observations from a re-analysis of the deposited data

Results flagged for a closer look

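Among 40 sets of 4 arrays (10 symbols in 4 groups), 2 had an array that stood apart past the 95% critical value of Dixon's ratio, the gap to the nearest array over the range of the group. For Clec7a in KO on the high cholesterol diet, replicate 3 was above the other arrays with a ratio of 0.907. For Clecsf12 in WT on the high cholesterol diet, replicate 2 was below the others with a ratio of 0.851. Chance flags about 1 in 20 such sets.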

How the results depend on the processing

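The median difference of the 10 symbols kept its direction for the diet in WT (1.48 to 1.87) and in KO (0.88 to 1.40) and between the genotypes on the high cholesterol diet (-0.91 to -0.53) under every alternative run. The diet difference in KO moved from 1.07 to 1.40 with no background correction and to 1.40 with the authors' normalized values. The interaction moved from -0.61 to -0.96 with 7 symbols, an alternative chosen after seeing the data. It left out Clecsf12 and Lyzs, which repeat a gene, and also Lyz, which RefSeq lists under Lyz1. The interactions of Clecsf12, Lyzs and Lyz were -0.33, 0.07 and -0.28. Leaving out each array in turn gave 1.48 to 1.84 for the diet in WT, 0.88 to 1.23 in KO and -0.72 to -0.53 between the genotypes on the high cholesterol diet. Over all genes, 10 passed as lower in KO on the high cholesterol diet, but 21 with median scaling or without WT replicate 4, 4 with no background correction or the authors' values, and 0 when only the groups compared were fitted. On chow 0 passed in either direction, but 173 higher and 178 lower passed with array weights, and 47 and 27 when only the groups compared were fitted. In WT 1265 rose and 1089 fell with the diet, but 1099 and 1315 with median scaling; in KO 1411 and 1148 became 1016 and 1347. Median scaling put the median of all genes at -0.11 for the diet in KO, -0.12 between the genotypes on chow and -0.14 on the high cholesterol diet. Gpnmb did not pass between the genotypes on the high cholesterol diet with no background correction, the authors' values, no detection filter, a variance trend or only the groups compared, nor Cd63 with only the groups compared. Of 24 correlations between same-numbered samples 7 were over 0.1 (-0.124 to 0.274). Those between WT and KO on the high cholesterol diet were 0.221, 0.0987, 0.259 and 0.274 for numbers 1 to 4, and 3 of 4 WT arrays and 2 of 4 KO arrays correlated best with their own number. Not every pair was over 0.1, so the numbers were not taken as pairs. With the replicate number as a block the medians were 1.65, 1.07, 0.04, -0.63 and -0.61, 9 symbols passed for the diet in KO, and Gpnmb and Cd63 again passed between the genotypes on the high cholesterol diet. Signal near background limits Clec7a, Clecsf12, Mmp12 and the chow values of Gpnmb. The slide of each array is not known here, and no fit with it was made.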
